A study of Mus musculus with 8 samples.

Results

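Gene expression in CD34bright progenitors of mouse bone marrow was set against the unweighted mean of 3 CD34dim progenitor populations, and the genes described are those whose 2 CD34bright libraries both lay above, or both lay below, all 6 CD34dim libraries. Of 13177 genes tested, out of 24411 in the files, 641 lay above and 551 lay below, 1192 together. Every sample was primary marrow of C57BL/6 wild-type mice, sorted, per the labels, for KIT and without CD16/32. CD34bright cells carried CD41 and CD9. The 3 comparators were CD34dim: a CD48dim and a CD48bright population, each CD41+ CD9+, and a population negative for CD41 and CD9, called CD41- CD9- here. Each population has 2 libraries. The labels do not say whether they came from separate mice or sorts, so a p-value covers only how far the libraries of a pair lie apart, and that distance may be technical.

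Common myeloid progenitors are marrow cells that can still form granulocytes, monocytes, erythrocytes and megakaryocytes, and the gate that defines them holds cells already biased to 1 of these fates. CD34 is a sialomucin on early progenitors whose surface level falls as many of them mature. CD41 and CD9 mark cells close to the megakaryocyte and stem cell compartments, and CD48 is a SLAM family protein that is low on stem cells. In bulk RNA, a lower level can mean fewer cells of a type or less RNA per cell, and the libraries cannot tell these apart.

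The CD34bright libraries held 20632000 and 15017600 expected counts and the other 6 between 7237590 and 19594600. Levels below are CPM, expected counts scaled to a fixed total with TMM factors, and differences are log2 values with a standard error (SE). The CD48dim libraries stood apart. Their Spearman correlation over the tested genes was 0.836, while the pairs of CD34bright, CD48bright and CD41- CD9- libraries were at 0.976, 0.954 and 0.962. Malat1, a nuclear RNA, was at 5004 and 11376 CPM in CD34bright, against 10325 and 38947 in CD48dim, 7103 and 12344 in CD48bright and 9474 and 14867 CPM in CD41- CD9- cells, so 1 CD48dim library was far above the rest.

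Cd34 itself followed the gate in the order of its levels. It (chromosome 1, 194938821 to 194961292) was at 509.6 and 461 CPM in CD34bright, against 197 and 166 in CD48dim, 233 and 397 in CD48bright and 239 and 396 CPM in CD41- CD9- cells. Both CD34bright libraries lay above the other 6, but the highest of these, CD48bright replicate 2 and CD41- CD9- replicate 2, came within a factor of 1.16 of the lower CD34bright library. The log2 difference from the CD34dim mean was 0.88 ± 0.29 (SE) and did not pass (adjusted p = 0.495, edgeR quasi-likelihood F-test). It passed in 1 of 20 alternative fits, without CD48dim replicate 1 (adjusted p = 0.0496, edgeR), and in deposited TPM the libraries overlapped. Of its relatives and selectin ligands Spn, Selp, Cd164, Selplg, Cd44 and Podxl, 0 of 6 lay outside the CD34dim range, beside 9.05% of all genes tested. Kit, the stem cell factor receptor gated positive in every population, was at 607 and 613 CPM in CD34bright, against 771 and 1226 in CD48dim, 631 and 743 in CD48bright and 240.02 and 358 CPM in CD41- CD9- cells, with CD34bright inside the range of the others. Itga2b, the gene of CD41, was at 75.7 and 104 CPM in CD34bright, against 155 and 112 in CD48dim, 93.8 and 64.3 in CD48bright and 2.83 and 2.18 CPM in CD41- CD9- cells. Only the CD41- CD9- libraries were low, and the CD34bright value rose against them (log2 difference 5.16 ± 0.44 (SE), adjusted p = 0.00309, edgeR). Cd48 was at 209 and 157 CPM in CD34bright, against 35.8 and 16.9 in CD48dim, 179 and 229 in CD48bright and 221 and 246 CPM in CD41- CD9- cells. Only CD48dim was low, and CD34bright rose against it (log2 difference 2.79 ± 0.42 (SE), adjusted p = 0.0374, edgeR). Of the genes of CD16 and CD32, which were gated out, Fcgr3 was at 46.98 and 29.3 CPM in CD34bright against 3.02 to 87.3 CPM in the other 6, and Fcgr2b at 41.2 and 31.2 against 13.5 to 39.9 CPM. Both overlapped, and they share sequence that the counting may divide.

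Against the CD34dim mean, 0 of 13177 genes passed an adjusted p of 0.05 with edgeR, 0% of those tested, and the smallest adjusted p was 0.147. At an unadjusted p below 0.05 there were 989 genes (7.51%), of which 465 were higher (3.53%) and 524 lower (3.98%) in CD34bright. DESeq2 called 249 genes, 67 higher and 182 lower, limma-voom called 0, and voom with library quality weights called 92. A block for replicate number gave 2 calls, Slc7a8 higher and Cmah lower. With CD48dim replicate 1 left out edgeR called 1096 genes, with CD48dim replicate 2 left out 232, and with CD41- CD9- replicate 1 left out 1, Slc7a8. Leaving out a CD48dim library also takes the spread between the pair out of the error estimate. Since no gene passed in the fit of all 8 libraries, the genes below are described by their levels in each library. The separation chose them, so their p-values describe the fit and support nothing further.

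The 641 genes above made up 4.86% of genes tested, the 551 below made up 4.18%, and both together 9.05%. The library nearest to CD34bright was most often a CD48bright one, for 386 of the genes above (60.2%) and 318 of the genes below (57.7%). It was a CD41- CD9- library for 157 and 123, and a CD48dim library for 98 and 110. A further 54 above and 6 below are among the 5311 genes with counts that the filter on low counts left out, and are not described. The gaps were mostly narrow. The lower CD34bright library exceeded the nearest other by a median factor of 1.10 in the genes above, with a gap over 1.5 in 30 and over 2 in 5. On the other side the median gap was 1.16, with a gap over 1.5 in 128 and over 2 in 65. The genes above were at a median of 71.1 CPM in CD34bright, against 26.0 CPM there over all genes tested. Those below were at a median of 24.6 CPM over the CD34dim libraries, against 27.3 CPM over all. By edgeR, 11 of the genes above (1.72%) and 9 of those below (1.63%) also differed among the 3 CD34dim populations in the fit of all 8 libraries, against 328 of all genes tested (2.49%, and 723 genes with the replicate block). Just inside the limit lay Cd81, a tetraspanin, at 172.00 CPM in the lower CD34bright library against 171.96 CPM in the highest of the others, and just outside lay the mitotic gene Prc1, at 144.54 against 144.58 CPM. Phkb, a subunit of phosphorylase kinase, and Zfp36, which destabilises mRNAs, were the nearest on the other side, at 78.33 against 78.35 CPM and 317.84 against 317.81 CPM in the higher CD34bright and the lowest other library.

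The split between the directions moved with the scaling. Of the separated genes 53.8% lay above with TMM scaling, 53.9% with DESeq2 size factors (645 above, 551 below), 31.3% without composition scaling (370 above, 813 below) and 20.9% in deposited TPM (241 above, 914 below). The median log2 difference of all genes tested was 0.01 with TMM, -0.11 without it and -0.25 in TPM. By this measure 6641, 5535 and 4159 of the 13177 genes had a positive sign. Signs and separation are given on each scale as it stands and are not centred on these medians. Of the 15 genes named by rule on each side, all 15 below stayed below on each of the 4 scales, and of the 15 above 14 stayed above without TMM and 12 in TPM, where Cxcr2 and Ms4a2 were among those that did not. Added after the CD48dim libraries were seen to stand apart, the separation from the 4 CD48bright and CD41- CD9- libraries alone held for 1103 genes above and 1215 below.

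**Figure D1:**
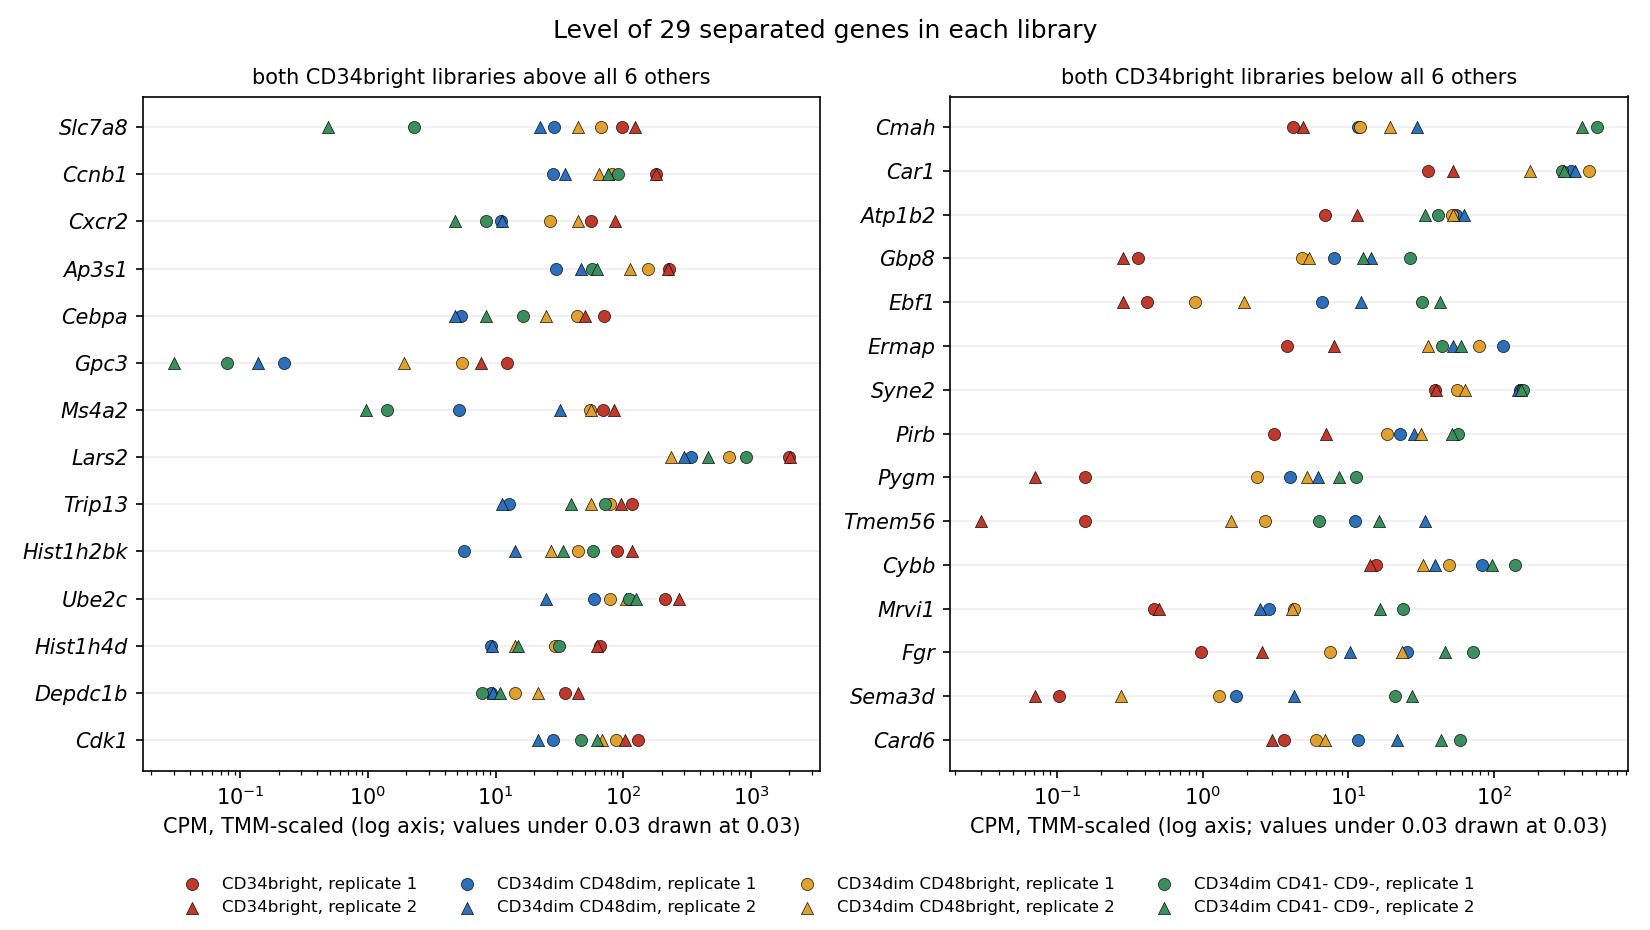
Level of 29 separated protein-coding genes in each of the 8 libraries (CPM on a log axis), 14 with both CD34bright libraries above the other 6 and 15 with both below, in order of the p-value. Each point is 1 library, coloured by population, with circles for replicate 1 and triangles for replicate 2; the CD34bright points lie at 1 end of each row, next to a CD48bright point in most rows.

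Of the 23 gene lists, mitosis had the highest share of members above, 16 of 26 tested, against 4.86% of all genes tested. Cyclin B and the kinase CDK1 drive entry into mitosis, and the ubiquitin ligase APC/C, with the enzyme UBE2C, ends it by destroying cyclins. Ccnb1, which encodes cyclin B1 (chromosome 13, 100778739 to 100786486), was at 181 and 179 CPM in CD34bright, against 27.9 and 35.04 in CD48dim, 81.5 and 64.8 in CD48bright and 91.05 and 75.8 CPM in CD41- CD9- cells. The 2 CD34bright values were nearly equal and stood 1.97 times above the nearest other library, with the CD48dim pair lowest. The log2 difference from the CD34dim mean was 1.64 ± 0.24 (SE) (adjusted p = 0.147, edgeR). Ube2c (chromosome 2, 164769929 to 164772902) was at 214 and 271 CPM in CD34bright, against 58.7 and 24.6 in CD48dim, 78.3 and 105 in CD48bright and 112 and 127 CPM in CD41- CD9- cells. Both CD34bright libraries again lay above all others, and the CD41- CD9- pair came closest (1.66 ± 0.32 (SE), adjusted p = 0.199, edgeR). Cdk1 (chromosome 10, 69335146 to 69352912) was at 131 and 102 CPM in CD34bright, against 28.1 and 21.6 in CD48dim, 88.1 and 67.8 in CD48bright and 46.3 and 61.8 CPM in CD41- CD9- cells. Its nearest library was CD48bright replicate 1 (1.31 ± 0.26 (SE), adjusted p = 0.225, edgeR). Ccnb2, the second mitotic cyclin B gene (chromosome 9, 70407689 to 70421554), was at 152 and 174 CPM in CD34bright, against 51.5 and 45.6 in CD48dim, 85.8 and 82.6 in CD48bright and 109 and 84.3 CPM in CD41- CD9- cells (1.15 ± 0.23 (SE), adjusted p = 0.225, edgeR).

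The 250 bases before the start of these 4 genes are shown because promoters of mitotic genes are known for 2 elements, the CHR (TTTGAA), which the DREAM and MuvB complexes bind, and CCAAT boxes (CCAAT), which NF-Y binds. The sequences are those of RefSeq on build GRCm38.p6, on the strand of the gene, with matches to either motif on either strand in capitals, so a box on the other strand reads TTCAAA or ATTGG.
Ccnb1 (chr13:100786487-100786736, minus strand): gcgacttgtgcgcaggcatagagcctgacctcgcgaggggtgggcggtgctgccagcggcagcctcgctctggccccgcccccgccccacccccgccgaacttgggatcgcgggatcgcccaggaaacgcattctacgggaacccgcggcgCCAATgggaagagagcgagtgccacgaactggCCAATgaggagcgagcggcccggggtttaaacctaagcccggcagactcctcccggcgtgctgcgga
Ube2c (chr2:164769679-164769928, plus strand): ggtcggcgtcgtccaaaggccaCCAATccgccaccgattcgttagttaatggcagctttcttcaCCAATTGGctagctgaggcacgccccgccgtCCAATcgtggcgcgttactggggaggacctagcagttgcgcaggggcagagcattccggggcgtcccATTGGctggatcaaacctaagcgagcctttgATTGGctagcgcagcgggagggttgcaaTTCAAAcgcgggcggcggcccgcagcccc
Cdk1 (chr10:69352913-69353162, minus strand): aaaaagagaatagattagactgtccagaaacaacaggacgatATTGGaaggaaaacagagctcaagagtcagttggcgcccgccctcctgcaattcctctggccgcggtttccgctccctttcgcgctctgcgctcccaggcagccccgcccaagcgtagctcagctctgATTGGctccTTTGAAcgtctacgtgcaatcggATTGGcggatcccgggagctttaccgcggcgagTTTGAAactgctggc
Ccnb2 (chr9:70421555-70421804, minus strand): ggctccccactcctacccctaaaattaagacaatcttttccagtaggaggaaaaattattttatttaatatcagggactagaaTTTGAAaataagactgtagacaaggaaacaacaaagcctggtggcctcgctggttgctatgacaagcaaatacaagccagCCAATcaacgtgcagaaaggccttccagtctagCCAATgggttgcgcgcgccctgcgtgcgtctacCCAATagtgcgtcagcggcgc
The last 2 CCAAT boxes before the start lay 32 bases apart in Ccnb1 and Cdk1, 31 in Ube2c and 33 in Ccnb2, counted from box start to box start. A pair of the 6 boxes of Ube2c overlap on opposite strands. No CHR was found in the Ccnb1 window, which says only that these letters are absent there. Over windows of 250 bases before to 50 after the start, 21 of the 26 tested genes of the mitosis list (80.8%) had a RefSeq promoter, and of these 15 held a CHR (71.4%) and 18 a CCAAT box (85.7%). Over all 27025 promoters of that table the shares were 18.1% and 37.9%. That table also holds genes not expressed in these cells.

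Across the mitosis list 0 genes lay below all CD34dim libraries, all 26 had a positive sign, and 18 had an unadjusted p below 0.05, while 0 passed over all genes (edgeR). The median log2 difference was 0.94, against -0.02 over all genes tested, 6412 of which had a positive sign. In the scales above, 15 members lay above without TMM and 10 in deposited TPM, where 25 of 26 had a positive sign. The summed level was 7410 and 8418 CPM in CD34bright, against 2637 and 4977 in CD48dim, 5009 and 6376 CPM in CD48bright and 5459 and 6675 CPM in CD41- CD9- cells. Each CD34bright sum exceeded each CD34dim sum. The median difference was 1.69 from CD48dim, 0.59 from CD48bright and 0.59 from CD41- CD9- cells. Against CD48dim 6 members rose with edgeR, among them Ccnb1, Ube2c, Cdk1 and Ccnb2, and 19 with the replicate block. Over all genes tested 0.364% rose against CD48dim, and the block called 682 genes in either direction. Against either of the other populations 0 members passed, with or without the block. Mki67, which encodes the proliferation marker Ki-67, overlapped, at 1980.3 and 2560 CPM in CD34bright against 959 to 2916 CPM in the other 6, as did Cenpe, Mad2l1, Birc5 and Foxm1. These 5 were named after their values were seen. Trip13, an ATPase of the spindle checkpoint, was at 118 and 96.4 CPM in CD34bright, against 12.8 and 11.1 in CD48dim, 78.7 and 55.7 in CD48bright and 71.9 and 38.7 CPM in CD41- CD9- cells. Depdc1b, a DEP domain gene, was at 35.2 and 43.99 CPM in CD34bright, against 9.18 and 9.48 in CD48dim, 14.2 and 21.5 in CD48bright and 7.79 and 10.7 CPM in CD41- CD9- cells. In both genes the CD34bright pair was highest and the nearest library was a CD48bright one. The histone genes Hist1h2bk (88.7 and 117 CPM in CD34bright, 5.65 to 57.6 CPM in the other 6) and Hist1h4d (66.01 and 62.5 and 9.25 to 31.2 CPM) also lay above, but near-identical copies make the split of their reads uncertain.

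Of 27 DNA replication genes tested, 5 lay above and 0 below, against 4.86% and 4.18% over all genes tested, with a median of 0.30. The median was 0.81 against CD48dim, -0.07 against CD48bright and 0.18 against CD41- CD9- cells. The list summed to 4248 and 3394 CPM in CD34bright, against 1624 to 4246 CPM in the other 6, so the sums overlapped. Gins2, a subunit of the replicative helicase, was at 105 and 116 CPM in CD34bright, against 32.4 and 20.2 in CD48dim, 89.2 and 60.1 in CD48bright and 94.7 and 62.5 CPM in CD41- CD9- cells, a narrow gap over CD41- CD9- replicate 1, and it overlaps Gse1, with 399% as many counts, so its level is uncertain. Tyms, which makes thymidylate, was at 135 and 161 CPM in CD34bright against 48.96 to 116 CPM in the other 6. The helicase loading factor gene Mcm10 (82.97 and 82.4 CPM in CD34bright, 26.5 to 75.99 CPM in the other 6) and the thymidine kinase gene Tk1 (84.6 and 92.7 CPM in CD34bright, 41.4 to 84.1 CPM in the other 6) lay just above the others. Without TMM 3 of the list lay above and in TPM 1, against 370 and 241 of the 13177 genes tested.

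In the list of ribosome biogenesis and the nucleolus, 6 of 23 tested genes lay above (4.86% over all genes tested) and 0 below, with a median of 0.44. All 23 had a positive sign with TMM, 21 without it and 17 in TPM. The list summed to 8177 and 7445 CPM in CD34bright, against 4938 to 6856 CPM in the other 6. Dkc1, the pseudouridine synthase dyskerin, was at 409 and 411 CPM in CD34bright, against 189 and 174 in CD48dim, 369 and 352 in CD48bright and 246 and 221 CPM in CD41- CD9- cells. The CD34bright pair lay close together, just above CD48bright. Rrp9, a protein of the box C/D snoRNP (described in yeast and human), was at 25.6 and 34.1 CPM in CD34bright, against 16.5 and 10.99 in CD48dim, 17.8 and 10.1 in CD48bright and 8.97 and 7.43 CPM in CD41- CD9- cells, with CD48bright replicate 1 nearest. Nop2, an rRNA methyltransferase, was at 94.7 and 105 CPM in CD34bright against 38.5 to 73.9 CPM in the other 6. Mybbp1a, a nucleolar MYB-binding protein, was at 276 and 355 CPM in CD34bright against 155 to 257 CPM in the other 6. Dkc1 overlaps Mpp1 and Mybbp1a overlaps Spns2, with 30.2% and 100.04% as many counts, and the kit is not stated to keep strand. Without TMM 5 members lay above and in TPM 1 did. All 18 cytosolic ribosomal protein genes also had a positive sign (17 in TPM, median 0.48), but 0 lay outside the CD34dim range. In glycolysis 3 of 17 genes lay above, beside the same 4.86% over all genes tested, and 0 below (median 0.57). The glycolysis sums were 8171 and 7315 CPM in CD34bright against 2319 to 6665 CPM in the other 6. Gapdh, a glycolytic dehydrogenase, was at 3808 and 3783 CPM in CD34bright, against 1257 and 1067 in CD48dim, 2815 and 1852 in CD48bright and 2506 and 1507 CPM in CD41- CD9- cells. Ldha, lactate dehydrogenase A, was at 1018 and 1208 CPM in CD34bright against 327 to 905 CPM in the other 6, and Pfkl, the liver phosphofructokinase, at 79.6 and 80.1 CPM in CD34bright against 28.7 to 72.8 CPM. All 3 lay above, Pfkl by a gap of 1.09. In TPM the list held 3 above and 1 below, and Pfkl overlapped.

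Cebpa, of the primary granule and transcription factor lists, and Cxcr2, of the mature neutrophil list, lay above all CD34dim libraries. Of the 11 tested genes of the mature neutrophil list, 10 had a negative sign. Cebpa, a transcription factor that granulocyte and monocyte progenitors need (chromosome 7, 35119293 to 35121928), was at 70.9 and 49.7 CPM in CD34bright, against 5.36 and 4.81 in CD48dim, 43.2 and 24.9 in CD48bright and 16.3 and 8.48 CPM in CD41- CD9- cells. The CD48bright libraries came next and the CD48dim pair was lowest. The difference from the mean was 2.22 ± 0.36 (SE) (adjusted p = 0.154, edgeR), and against CD48dim alone Cebpa rose (log2 difference 3.56 ± 0.54 (SE), adjusted p = 0.0374, edgeR). Cxcr2, a receptor for neutrophil chemokines (chromosome 1, 74153994 to 74161246), was at 55.8 and 86.9 CPM in CD34bright, against 11.1 and 11.3 in CD48dim, 26.8 and 43.9 in CD48bright and 8.34 and 4.76 CPM in CD41- CD9- cells (2.38 ± 0.34 (SE), adjusted p = 0.147, edgeR). Again CD48bright was nearest, and CD34bright rose against CD41- CD9- cells (log2 difference 3.44 ± 0.51 (SE), adjusted p = 0.0234, edgeR). Of 35 haematopoietic transcription factors Cebpa was the 1 that lay outside the CD34dim range, beside 9.05% of all genes tested. In the primary granule and neutrophil progenitor list, 20 of 24 genes had a positive sign and the median was 0.65. That median was 0.38 against CD48dim, -0.13 against CD48bright and 1.37 against CD41- CD9- cells. Only Cebpa lay above and Fcnb below, beside 4.86% and 4.18% over all genes tested. Mpo, myeloperoxidase, named after its values were seen, was at 16433 and 12863 CPM in CD34bright, against 9789 and 2103 in CD48dim, 15263 and 6814 in CD48bright and 3107 and 2182 CPM in CD41- CD9- cells, and CD48bright replicate 1 lay between the CD34bright libraries.

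Fcnb of the primary granule list and Retnlg of the mature neutrophil list lay below. Fcnb, which encodes a ficolin, was at 0.258 and 0.142 CPM in CD34bright, against 53.96 and 13.5 in CD48dim, 8.11 and 1.65 in CD48bright and 6.45 and 2.66 CPM in CD41- CD9- cells. Retnlg, a resistin-like gene of neutrophils, was at 0.825 and 1.07 CPM in CD34bright, against 30.4 and 5.36 in CD48dim, 2.18 and 4.30 in CD48bright and 28.4 and 2.99 CPM in CD41- CD9- cells. Both were highest in CD48dim replicate 1. In the mature neutrophil list 10 of 11 genes had a negative sign (median -2.45). Of these 11, 1 lay below and 1, Cxcr2, above, beside 4.18% and 4.86% over all genes tested. The list summed to 132.2 and 167.5 CPM in CD34bright, against 4263 and 627.1 in CD48dim, 160.6 and 115.4 CPM in CD48bright and 720.7 and 50.2 CPM in CD41- CD9- cells. The high sums came from CD48dim and from CD41- CD9- replicate 1, and their part in the differences of Fcnb and Retnlg was not tested.

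Of 16 tested genes of basophils, eosinophils and mast cells, Ms4a2 and Csf2rb lay above and 0 below, against 4.86% and 4.18% over all genes tested. A positive sign was found in 14 of the 16, and the median was 1.27. That median was 2.03 against CD48dim, 0.15 against CD48bright and 3.53 against CD41- CD9- cells. Over all 18 listed members, the sums were 1476.91 and 1844.5 CPM in CD34bright and 2033.93 and 1295.77 CPM in CD48bright. They were 667.7 and 942.6 CPM in CD48dim and 315.2 and 291.3 CPM in CD41- CD9- cells. CD48bright replicate 1 had the highest sum, so the sums overlapped. Ms4a2, the beta chain of the high affinity IgE receptor (chromosome 19, 11615517 to 11623790), was at 69.7 and 85.1 CPM in CD34bright, against 5.14 and 32.02 in CD48dim, 54.8 and 55.4 in CD48bright and 1.42 and 0.969 CPM in CD41- CD9- cells. Both CD34bright libraries lay above CD48bright by a factor of 1.26 or more, and the CD41- CD9- pair was near 1 CPM (2.86 ± 0.51 (SE) from the mean, adjusted p = 0.172, edgeR). Csf2rb, the shared beta chain of the receptors for interleukin 3, interleukin 5 and GM-CSF, was at 228 and 225 CPM in CD34bright, against 73.6 and 26.8 in CD48dim, 177 and 157 in CD48bright and 184 and 153 CPM in CD41- CD9- cells. Fcer1a and Cpa3, named after their values were seen, overlapped CD48bright, at 29.5 and 67.5 CPM in CD34bright against 55.3 and 32.9 CPM in CD48bright for Fcer1a and 396 and 565 against 365 and 406 CPM for Cpa3. Against CD41- CD9- cells 5 members rose (Fcer1a, Cpa3, Hdc, Ms4a2 and Gata2; 8 with the replicate block), against CD48dim 1, Cpa3 (4 with the block) and against CD48bright 0. Over all genes tested 0.266% rose against CD41- CD9- cells and 0.364% against CD48dim. The block called 266 and 682 genes in either direction. In TPM 0 members of the list lay outside the CD34dim range.

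The remaining genes above have diverse roles. Slc7a8, a transporter of neutral amino acids (chromosome 14, 54722215 to 54781886), was at 98.5 and 124 CPM in CD34bright, against 28.5 and 22.3 in CD48dim, 66.3 and 43.9 in CD48bright and 2.28 and 0.484 CPM in CD41- CD9- cells. The CD34bright pair was highest, CD48bright next and CD41- CD9- lowest. Its difference of 3.15 ± 0.41 (SE) had the smallest p of all genes above (adjusted p = 0.147, edgeR), passed with the replicate block (adjusted p = 0.0479, edgeR), and passed in 10 of 20 alternative fits. Ap3s1, a subunit of the AP-3 adaptor that sorts proteins to lysosome-related organelles, was at 226 and 224 CPM in CD34bright, against 29.95 and 46.4 in CD48dim, 157 and 113 in CD48bright and 56.97 and 62.3 CPM in CD41- CD9- cells. It overlaps Atg12, with 49.2% as many counts, so its level is uncertain. Gpc3, a cell surface heparan sulphate proteoglycan, was at 12.2 and 7.75 CPM in CD34bright, against 0.220 and 0.137 in CD48dim, 5.41 and 1.92 in CD48bright and 0.0787 and 0 CPM in CD41- CD9- cells, with the CD41- CD9- values resting on at most 1 read. Lars2, the mitochondrial leucyl-tRNA synthetase, was at 1974 and 2006 CPM in CD34bright, against 338 and 297 in CD48dim, 679 and 238 in CD48bright and 908 and 460.5 CPM in CD41- CD9- cells. The CD34bright pair stood 2.17 times above the highest other library (2.10 ± 0.38 (SE), adjusted p = 0.179, edgeR). Rn45s, the unprocessed ribosomal RNA, was at 65761 and 105942 CPM in CD34bright, against 44592 and 7855 in CD48dim, 65349.7 and 9142 in CD48bright and 73452 and 18103 CPM in CD41- CD9- cells. Its part in the Lars2 values was not tested.

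Of the 23 lists, the erythroid one had the most members below, 6 of 21 tested, against 4.18% of all genes tested. Car1, carbonic anhydrase 1 of red cells (chromosome 3, 14766214 to 14808365), was at 35.2 and 51.9 CPM in CD34bright, against 337 and 357 in CD48dim, 446 and 176 in CD48bright and 292 and 301 CPM in CD41- CD9- cells. Every CD34dim library lay at least 3.40 times above the higher CD34bright one, and the CD48bright pair spanned the other CD34dim libraries (adjusted p = 0.960 for any difference among the 3 populations, edgeR). The difference from the mean was -2.87 ± 0.43 (SE) (adjusted p = 0.147, edgeR), and Car1 fell against CD48dim (log2 difference -2.995 ± 0.47 (SE), adjusted p = 0.0374) and against CD41- CD9- cells (log2 difference -2.77 ± 0.46 (SE), adjusted p = 0.0340). Ermap, an erythroid membrane protein of the immunoglobulin family (chromosome 4, 119175457 to 119190013), was at 3.76 and 7.96 CPM in CD34bright, against 116 and 52.1 in CD48dim, 78.2 and 35.2 in CD48bright and 43.8 and 58.9 CPM in CD41- CD9- cells. The CD34bright pair was lowest by a factor of 4.42, with no order shared by the rest (-3.42 ± 0.57 (SE), adjusted p = 0.161, edgeR). Add2, beta adducin of the red cell skeleton, was at 0.0516 and 0.355 CPM in CD34bright, against 34.6 and 15.8 in CD48dim, 5.93 and 3.20 in CD48bright and 6.53 and 2.18 CPM in CD41- CD9- cells. Ank1, the ankyrin that ties spectrin to the red cell membrane, was at 1.03 and 0.569 CPM in CD34bright, against 52.3 and 4.12 in CD48dim, 9.26 and 8.41 in CD48bright and 11.7 and 6.94 CPM in CD41- CD9- cells. CD48dim replicate 1 was highest for both.

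Among the erythroid genes below were Car1, Ermap, Add2, Ank1 and Aqp1. Of the 21 tested 0 lay above, 19 had a negative sign, and the median was -1.64. On each of the 4 scales 6 lay below and 0 above. The list summed to 421.8 and 503.8 CPM in CD34bright, against 777.3 to 1743 CPM in the 6 CD34dim libraries. The median difference was -2.73 from CD48dim, -1.21 from CD48bright and -0.75 from CD41- CD9- cells. Against CD48dim 3 members fell and against CD41- CD9- cells 2, or 9 and 3 with the replicate block. Over all genes tested 0.212% fell against CD48dim and 0.577% against CD41- CD9- cells. The block called 682 and 266 genes in either direction. The erythroid regulators Gata1 (24.9 and 23.2 CPM in CD34bright, 1.29 to 35.7 CPM in the other 6) and Klf1 (9.59 and 14.996 and 2.06 to 47.7 CPM) overlapped. The globin genes Hba-a1, Hba-a2, Hbb-bs and Hbb-bt, which share reads, also overlapped. These and Tfrc were named after their values were seen. Tfrc, the transferrin receptor, fell against CD41- CD9- cells, at 112 and 109.8 CPM in CD34bright against 609.8 and 797 CPM there (adjusted p = 0.0206, edgeR).

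**Figure D2:**
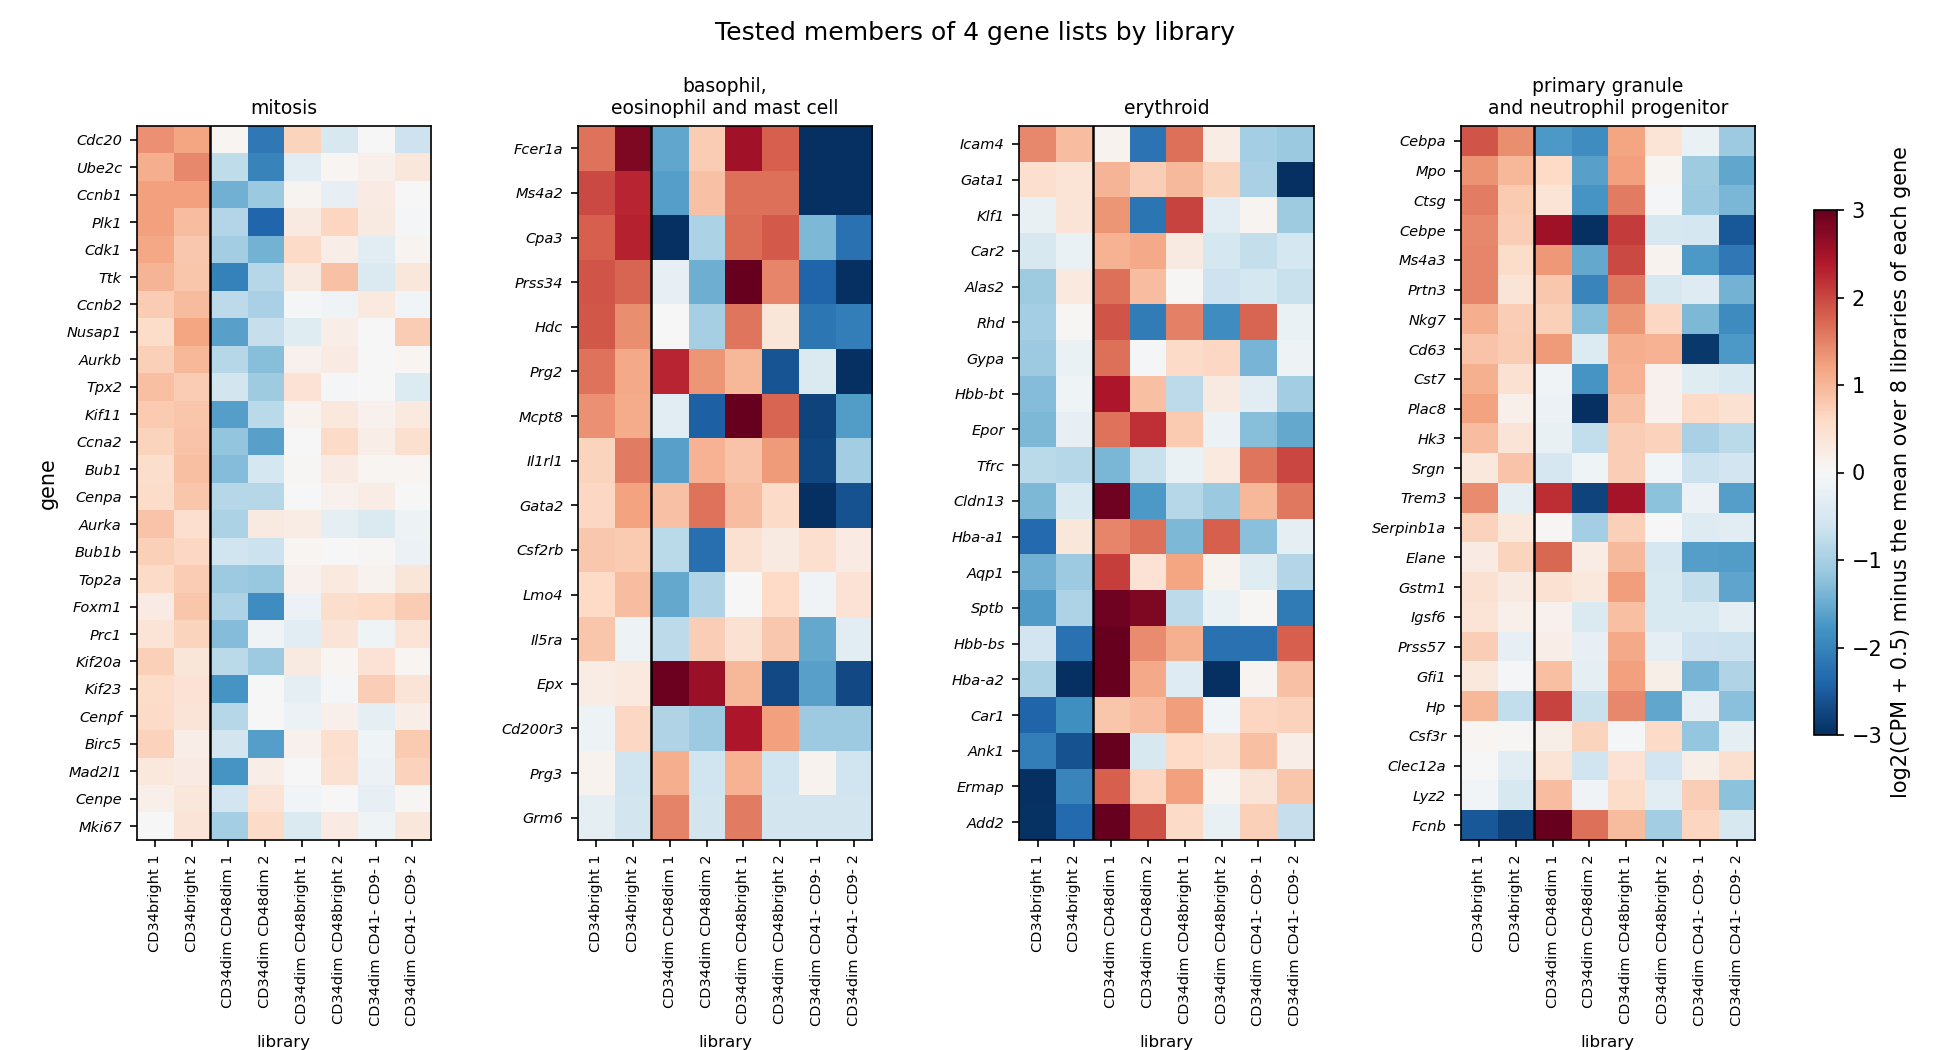
Tested genes of 4 lists (rows) in each library (columns), as log2(CPM + 0.5) minus the mean of the gene over the 8 libraries, with colours ending at -3 and 3 and a line between the CD34bright and the CD34dim libraries. Most mitosis genes are above their mean in both CD34bright libraries, the lowest erythroid rows (Car1, Ank1, Ermap and Add2) are below it there, and most mast cell and granule genes are above it in both CD34bright libraries and CD48bright replicate 1.

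Of the B cell and lymphoid lists, Ebf1, Ikzf3 and Lax1 lay below and Cd27 above, beside 4.18% and 4.86% over all genes tested. Ebf1, a transcription factor that sets the B cell fate (chromosome 11, 44618100 to 45008096), was at 0.413 and 0.284 CPM in CD34bright, against 6.53 and 12.1 in CD48dim, 0.884 and 1.92 in CD48bright and 31.9 and 42.8 CPM in CD41- CD9- cells. The CD34bright pair was lowest, CD48bright next and CD41- CD9- highest (-4.44 ± 0.70 (SE), adjusted p = 0.154, edgeR). Against CD41- CD9- cells it fell by 6.69 on the log2 scale (adjusted p = 0.0102, edgeR). All 12 B cell genes had a negative sign (median -2.71), but Ebf1 was the 1 that lay below. Their sum was 26.6 and 23.4 CPM in CD34bright, against 31.1 to 278.3 CPM in the CD34dim libraries. Ikzf3, an Ikaros family factor, was at 0.877 and 0.853 CPM in CD34bright, against 9.03 and 5.22 in CD48dim, 4.27 and 13.3 in CD48bright and 13.4 and 14.9 CPM in CD41- CD9- cells. Lax1, an adaptor of lymphocyte receptors, was at 1.44 and 3.55 CPM in CD34bright, against 14.5 and 13.2 in CD48dim, 4.06 and 7.31 in CD48bright and 44.2 and 29.95 CPM in CD41- CD9- cells. For both, CD34bright was lowest, in Lax1 by a narrow gap to CD48bright. Cd27, a TNF receptor family member of early lymphoid and multipotent progenitors, lay above, at 261 and 321 CPM in CD34bright against 135 to 255 CPM in the other 6, a gap of 1.03 that was lost without TMM and in TPM. The other 12 of 15 lymphoid genes overlapped. Against CD41- CD9- cells 8 of the 15 fell, among them Dntt, which adds bases to antigen receptor joints, and Il7r (12 with the replicate block). Over all genes tested 0.577% fell against CD41- CD9- cells, and the block called 266 genes in either direction. Gata3, of T cells and innate lymphoid cells, was at 2.37 and 2.49 CPM in CD34bright against 2.86 to 17.3 CPM in the other 6, the 1 of 11 T and NK cell genes that lay below.

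Cybb, Fgr, Pirb, Gbp8 and Card6 also lay below, each with a CD41- CD9- library highest. Cybb, the large subunit of the phagocyte NADPH oxidase (chromosome X, 9435252 to 9487766), was at 15.5 and 14.002 CPM in CD34bright, against 82.4 and 39.02 in CD48dim, 48.6 and 32.6 in CD48bright and 139 and 96.1 CPM in CD41- CD9- cells. Fgr, a Src family kinase of myeloid cells, was at 0.980 and 2.56 CPM in CD34bright, against 25.03 and 10.3 in CD48dim, 7.49 and 23.1 in CD48bright and 71.5 and 45.9 CPM in CD41- CD9- cells. CD34bright was lowest in both, and CD41- CD9- cells were highest. Pirb, an inhibitory receptor of myeloid and B cells with near-identical relatives, was at 3.09 and 6.97 CPM in CD34bright, against 22.7 and 28.2 in CD48dim, 18.5 and 31.4 in CD48bright and 56.5 and 51.3 CPM in CD41- CD9- cells. Gbp8, a guanylate-binding GTPase of a family with close copies, was at 0.361 and 0.284 CPM in CD34bright, against 7.93 and 14.3 in CD48dim, 4.79 and 5.39 in CD48bright and 26.5 and 12.7 CPM in CD41- CD9- cells. Its nearest library lay 13.3 times above CD34bright, a factor that rests on low CD34bright values and is uncertain. Card6, which has a caspase recruitment domain, was at 3.61 and 2.99 CPM in CD34bright, against 11.7 and 21.6 in CD48dim, 5.98 and 6.95 in CD48bright and 58.1 and 43.1 CPM in CD41- CD9- cells, with CD48bright next to CD34bright. In the monocyte and dendritic list only Zbtb46, a factor of classical dendritic cells, lay below, at 0.670 and 0 CPM in CD34bright against 0.731 to 5.63 CPM in the other 6, and reads of the overlapping genes Lime1, Zgpat and Slc2a4rg-ps, each with more counts, cannot be told from its own. The other 23 of the list overlapped, while 4.18% of all genes tested lay below. Against CD48dim 9 of these 23 rose and against CD41- CD9- cells 5 fell, or 11 and 10 with the block. Over all genes tested 0.364% rose against CD48dim and 0.577% fell against CD41- CD9- cells. The block called 682 and 266 genes in either direction.

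Cmah had the smallest p among the genes below. It encodes the hydroxylase that turns the sialic acid Neu5Ac into Neu5Gc (chromosome 13, 24327404 to 24477289) and was at 4.18 and 4.90 CPM in CD34bright, against 11.6 and 29.5 in CD48dim, 11.96 and 19.4 in CD48bright and 505 and 399 CPM in CD41- CD9- cells. The CD34bright pair was lowest and the CD41- CD9- pair was far above all others (-3.53 ± 0.47 (SE), adjusted p = 0.147, edgeR). It passed with the replicate block (adjusted p = 0.0479, edgeR). Atp1b2, a beta subunit of the sodium pump, was at 6.91 and 11.4 CPM in CD34bright, against 54.5 and 62.4 in CD48dim, 51.1 and 52.1 in CD48bright and 40.9 and 33.7 CPM in CD41- CD9- cells. Here the 6 CD34dim libraries lay close together, 2.95 times or more above CD34bright (-2.40 ± 0.37 (SE), adjusted p = 0.147, edgeR). Syne2, a nesprin that links nucleus and cytoskeleton, was at 39.2 and 39.9 CPM in CD34bright, against 149 and 145 in CD48dim, 55.1 and 62.6 in CD48bright and 159 and 151 CPM in CD41- CD9- cells. CD48bright lay between CD34bright and the other pairs. Mrvi1, a substrate of cGMP-dependent kinase, was at 0.464 and 0.498 CPM in CD34bright, against 2.86 and 2.47 in CD48dim, 4.21 and 4.11 in CD48bright and 23.7 and 16.5 CPM in CD41- CD9- cells. Pygm, glycogen phosphorylase of muscle, was at 0.155 and 0.0711 CPM in CD34bright, against 3.96 and 6.18 in CD48dim, 2.34 and 5.21 in CD48bright and 11.3 and 8.56 CPM in CD41- CD9- cells. Tmem56, a transmembrane gene, was at 0.155 and 0 CPM in CD34bright, against 11.01 and 33.7 in CD48dim, 2.65 and 1.55 in CD48bright and 6.30 and 16.3 CPM in CD41- CD9- cells. For Pygm and Tmem56 the CD34bright values rest on at most 3 reads a library, so no fold is given. Sema3d, a secreted semaphorin, was at 0.103 and 0.0711 CPM in CD34bright, at most 2 reads, against 0.274 to 27.4 CPM in the other 6.

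**Figure D3:**
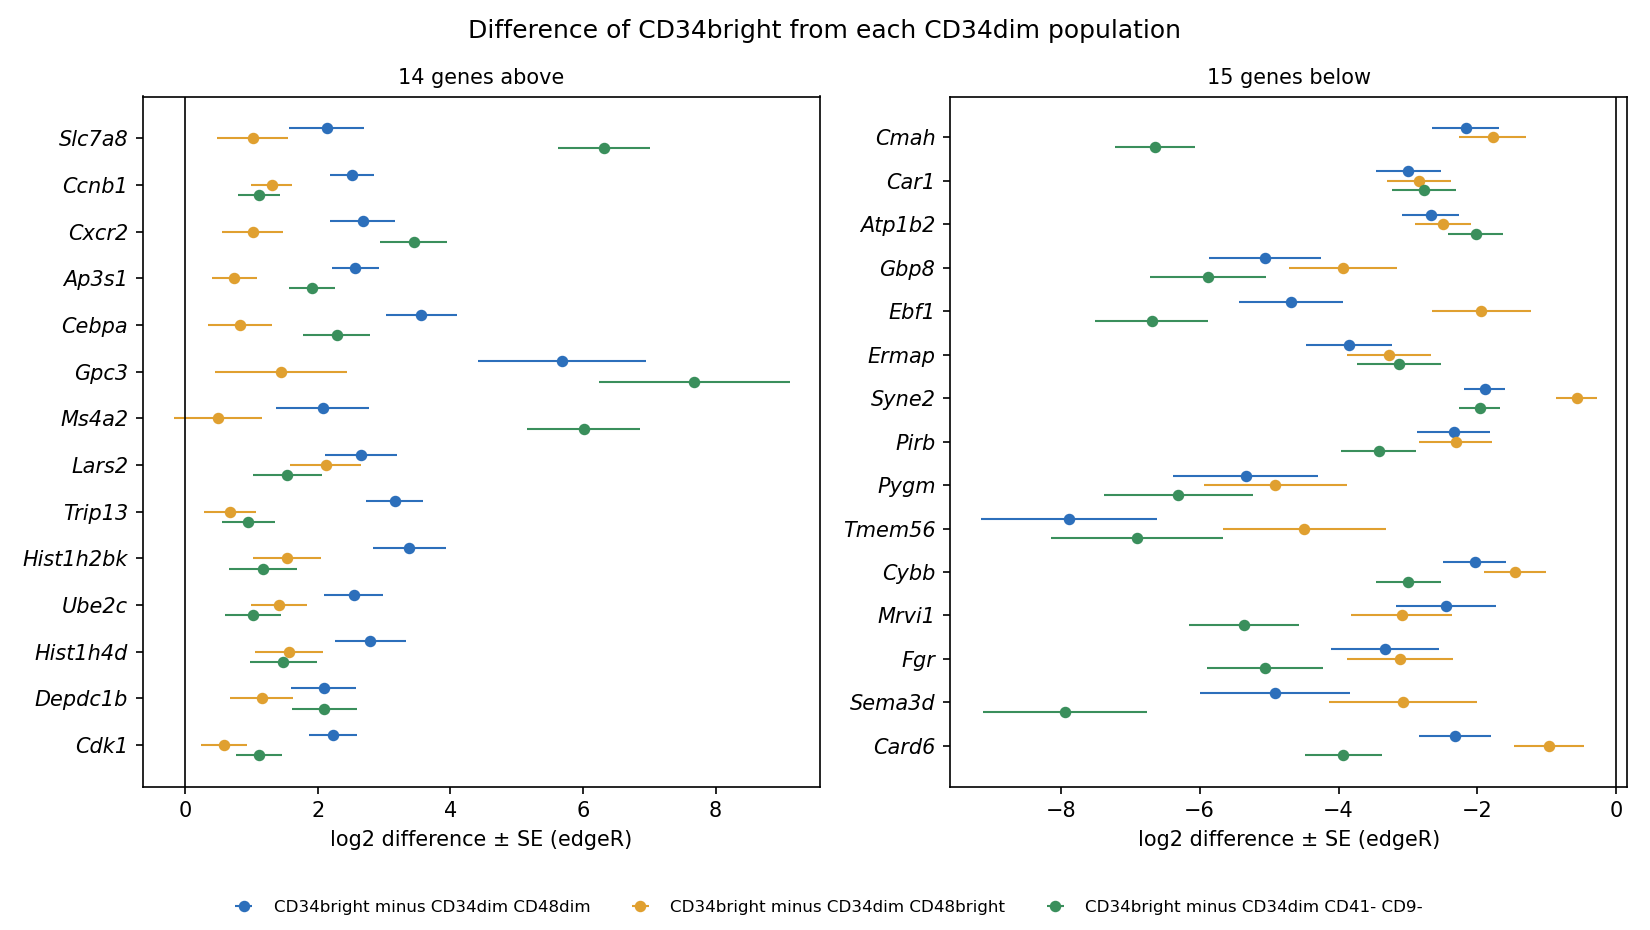
Log2 difference of CD34bright from each CD34dim population for the same 29 genes, as points with bars of 1 SE from edgeR, 14 genes above on the left and 15 below on the right. The differences from CD48bright are the smallest in most rows, and Car1, Atp1b2 and Ermap have similar differences from all 3 populations. Those of Pygm, Tmem56 and Sema3d rest on very few CD34bright reads and are uncertain.

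The stem cell, interferon and early response lists are set beside the shares over all genes tested, 4.86% above and 4.18% below. Of 23 stem cell genes 2 lay below and 0 above (median -0.41). These were Txnip, an inhibitor of thioredoxin, at 181 and 184 CPM in CD34bright, against 377 and 347 in CD48dim, 246 and 283 in CD48bright and 213 and 255 CPM in CD41- CD9- cells, and Hoxb5, at 0.0516 and 0 CPM in CD34bright against 0.315 to 7.71 CPM in the other 6, 1 read in all in CD34bright. The list's median was -2.01 against CD48dim, 0.18 against CD48bright and 0.57 against CD41- CD9- cells. Of 20 interferon-stimulated genes 3 lay below and 1 above, with 18 negative signs (median -0.52). Their median was -1.13 against CD48dim, 0.02 against CD48bright and -0.85 against CD41- CD9- cells. They summed to 569.5 and 602.0 CPM in CD34bright, inside the range of 476.5 to 940.4 CPM in the other 6. Oas2, a sensor of double-stranded RNA, was at 6.96 and 7.60 CPM in CD34bright, against 36.4 and 35.6 in CD48dim, 12.2 and 12.7 in CD48bright and 16.4 and 20.2 CPM in CD41- CD9- cells. The antiviral GTPase genes Mx1 (2.37 and 5.47 CPM in CD34bright, 6.09 to 36.1 CPM in the other 6) and Mx2 (0.722 and 0.355 and 2.61 to 10.7 CPM), which share sequence, also lay below. Ifi47, an interferon-induced GTPase, lay above, at 198 and 239.9 CPM in CD34bright against 67.6 to 159 CPM in the other 6. Fos, an immediate early transcription factor, was at 487 and 583 CPM in CD34bright, against 749.7 and 736 in CD48dim, 753 and 838 in CD48bright and 1075 and 893 CPM in CD41- CD9- cells. It was the 1 of 17 early response genes that lay below, and 15 of the list had a negative sign (median -0.55). Of 24 cytokine receptor genes Csf2rb was the 1 outside the CD34dim range. No member of the megakaryocyte and platelet (20 tested), endothelial and stromal (10) or macrophage (10) lists was outside it, counting those tested. Over all listed members, the endothelial and stromal genes summed to 196.4 and 209.8 CPM in CD34bright, against 184.2 to 295.4 CPM in the others. The macrophage genes summed to 67.5 and 59.3 CPM in CD34bright against 69.2 to 117.02 CPM. For macrophage genes alone, both CD34bright libraries had the lowest sums, replicate 1 only narrowly. Of the 10 tested macrophage genes 5 had a positive and 5 a negative sign (median 0.03).

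**Figure D4:**
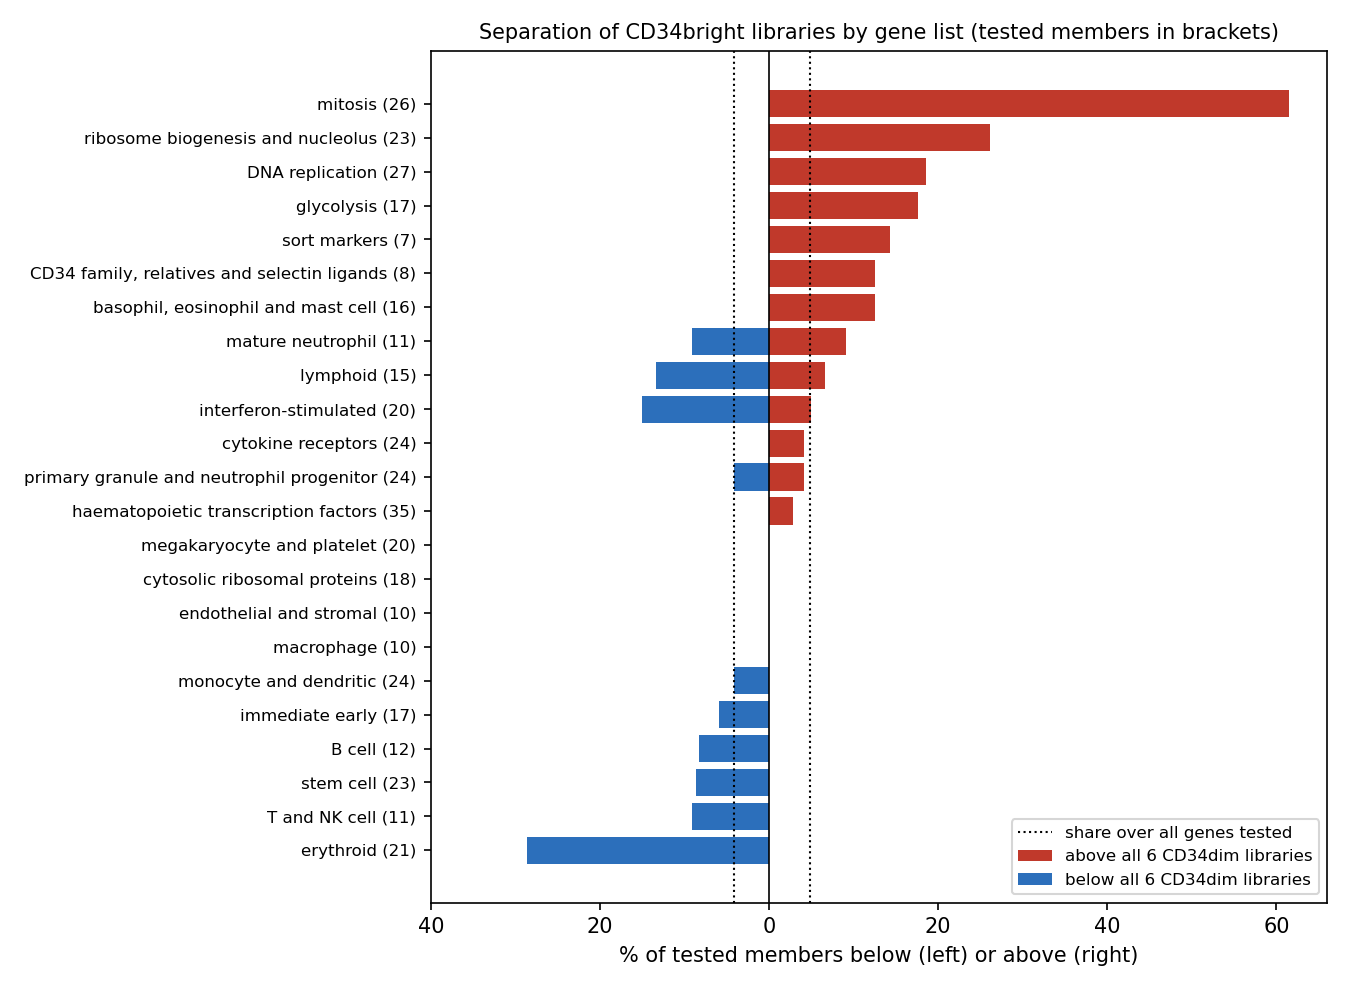
Share of the tested members of each gene list whose 2 CD34bright libraries both lay above (right) or both below (left) the 6 CD34dim libraries, in percent, with the number tested in brackets. Dotted lines mark the shares over all genes tested, 4.86% and 4.18%; 16 of 26 mitosis genes lie above and 6 of 21 erythroid genes below.

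The contrasts with single CD34dim populations share the CD34bright libraries and are given side by side. Against CD48dim 76 genes were called (0.577%, 48 higher, 0.364%, and 28 lower, 0.212%, in CD34bright), against CD41- CD9- cells 111 (0.842%, 35 higher, 0.266%, and 76 lower, 0.577%) and against CD48bright 0 (0%), where 262 genes had an unadjusted p below 0.05 and the smallest adjusted p was 0.468 with edgeR. With the replicate block the counts were 682, 266 and 0, and with DESeq2 1288, 624 and 37. Both counts turned on each library. Against CD48dim the count was 0 and 3 when CD34bright replicate 1 or 2 was dropped, 3911 and 684 when a CD48dim library was, 35 and 31 when a CD48bright one was, and 0 when either CD41- CD9- one was. Against CD41- CD9- cells it was 9 and 5 when CD34bright replicate 1 or 2 was dropped, 749 and 772 without a CD48dim library, 67 and 64 without a CD48bright one, and 3 and 9 without one of their own. Of the 641 genes above, 18 rose against CD48dim and 7 against CD41- CD9- cells. Of the 551 below, 14 fell against CD48dim and 30 against CD41- CD9- cells. Apart from the sort markers, the genes named by rule were chosen by separation from these same libraries, so their calls here support nothing further. Of the genes named by rule, 19 were called against CD48dim and 21 against CD41- CD9- cells. All of these were also called with the block and with DESeq2, which call more genes in both contrasts. Each was called in 2 to 4 of the 8 fits that leave out 1 library against CD48dim, and in 2 to 8 against CD41- CD9- cells, where Slc7a8 and Cmah were called in all 8.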

How the data were processed

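Total RNA was amplified by an Ovation kit (RNA-Seq System V2) and read on a NovaSeq, as the labels' protocols state. The deposited tables hold, per gene, expected counts and TPM that the authors made with RSEM 1.3.2 after STAR 2.7.2a on mm10, per the submitters' processing notes, which also name edgeR 3.30.3. For order and settings, the sources used here give nothing. The expected counts, not all whole (up to 2.20% of genes per library), were rounded here. The kit is not stated to keep strand, so reads of genes that overlap or lie antisense cannot be parted. Titles and design text number the clusters differently, so groups follow the sort gates.

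Genes were filtered by edgeR's filterByExpr over populations, which kept 13177 of 18488 genes with a count. All 8 libraries were fitted with 1 mean per population, TMM scaling and edgeR's quasi-likelihood F-test (edgeR 4.0.16, R 4.3.3), and p-values were adjusted by Benjamini-Hochberg over all genes tested, with 0.05 as the limit. The contrast is CD34bright minus the unweighted mean of the CD34dim population means. The biological coefficient of variation was 49.8%, with 4 residual degrees of freedom, so precision is low. The libraries of a pair never matched within counting noise. The procedure was tested on simulated counts.

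A gene is separated when both CD34bright libraries lie above, or both below, the other 6 in CPM. The text names the 15 protein-coding genes with the smallest p in each direction that reach 4 CPM on their higher side, at most 4 separated members of each of 23 gene lists, and the sort markers. Some genes that this rule or the lists name are not reported here, though counts include them. The members and lists were chosen with earlier results of these data known. Alternatives were DESeq2 1.42.0, its size factors in edgeR, limma-voom 3.58.1 with and without quality weights, no filter, the 6 CD34dim libraries as 1 group, each population or library left out, the replicate block, and the genes of the second deposited table. Same-numbered libraries deviated together from their population means in all 6 pairs of populations (correlations 0.112 to 0.222). Only the replicate block takes the numbers to pair the libraries, and the main fit has no such term. The labels do not say what same-numbered libraries share. Replicate 1 also held more counts than replicate 2 in each population, and the part of depth in these correlations was not tested. Gene coordinates are those of RefSeq on GRCm38.p6, matched by symbol (23194 genes) or synonym (1096), with 121 unmatched.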

Additional observations from a re-analysis of the deposited data

How the results depend on the processing

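Against the CD34dim mean, where 0 genes were higher and 0 lower in CD34bright, the calls higher and lower were 67 and 182 with DESeq2, 98 and 133 with no filter on low counts, 41 and 51 with quality weights, 1 and 1 with the replicate block, 3 and 4 with CD48dim left out of the mean, 1 and 1 with CD48bright left out, and 52 and 164 in the fit without the CD48dim libraries, which was added after seeing the data. Leaving out 1 library gave 0 to 787 higher and 0 to 309 lower, with the most without CD48dim replicate 1. Of the called genes, 185 of 249 with DESeq2, 125 of 231 with no filter and 73 of 216 without the CD48dim libraries were separated in the full set. DESeq2 size factors in edgeR, limma-voom, the 6 CD34dim libraries as 1 group, CD41- CD9- left out of the mean and the genes of the second table gave 0. The cause of these moves was not tested. The separated genes numbered 370 above and 813 below without TMM, 241 and 914 in TPM, and 1103 and 1215 against the 4 CD48bright and CD41- CD9- libraries, a rule with fewer libraries to clear.

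Against CD48dim, 76 genes became 1288 with DESeq2, 45 with limma-voom, 1018 with no filter, 682 with the replicate block, and 0 to 3911 without 1 library. Against CD48bright, 0 became 37 with DESeq2, 39 with no filter, 15 with quality weights, 12 without the CD48dim libraries, and 0 to 20 without 1 library. Against CD41- CD9- cells, 111 became 624 with DESeq2, 532 with no filter, 926 with quality weights, 266 with the block, 725 without the CD48dim libraries, and 3 to 772 without 1 library. Among the CD34dim populations, 328 became 1011 with DESeq2, 1346 with no filter, 73 with quality weights, 723 with the block, and 51 to 3297 without 1 library. Signs reversed for Kit (0.05), which became -0.12 with 1 CD34dim group, -0.44 with CD41- CD9- left out of the mean, and -0.046 to 0.18 without 1 library (-0.046 without CD48dim replicate 1, -0.02 without CD41- CD9- replicate 1). Itga2b (1.59) became -0.19 with CD41- CD9- left out of the mean, and Cd48 (0.76) became -0.26 with CD48dim left out of the mean and -0.26 in the fit without its libraries. Of 66 named genes, 42 were called with DESeq2, 2 with the block and 50 without CD48dim replicate 1. The replicate block changed no other call of the main contrast than Slc7a8 and Cmah. Depth limits the genes with at most 3 reads a library in CD34bright, for which no fold is given.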
